A study of Mus musculus with 6 samples.

Results

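The 10 genes described here handle iron and heme in epididymal white adipose tissue (eWAT): hemopexin (Hpx), haptoglobin (Hp), transferrin (Trf), transferrin receptor 1 (Tfrc), the ferritin light and heavy chains (Ftl1 and Fth1), ferroportin (Slc40a1), heme oxygenase 1 (Hmox1) and the metal transporters Slc11a1 and Slc11a2. They were matched by symbol, and all 10 were found among 21361 genes. The set was chosen from earlier results of the same Mettl14Δfat and Mettl14f/f comparison, so the differences of its members are given as a description, without a test. All 10 passed the filter for testing, a mean of at least 1 FPKM (fragments per kilobase of transcript, scaled to the fragments mapped in the library) over the 6 libraries, as did 12955 genes in all.

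RNA was sequenced from eWAT of 6 male mice, 3 Mettl14Δfat and 3 Mettl14f/f, one library per mouse. Mettl14Δfat mice carry floxed Mettl14 alleles and an adiponectin-cre transgene, which deletes the gene in adipocytes and leaves it in the other cells of the tissue. Control mice carry floxed Mettl14 without the deletion; their titles read ff and their genotype entry reads WT. Both groups were 8 weeks old when a high fat diet (HFD) began, both stayed on it for 16 weeks by the protocol in the labels and 20 weeks by the design text, and both were fasted overnight before dissection. Mettl14 and Mettl3 form the enzyme that writes N6-methyladenosine (m6A) into RNA, and the comparison asks how eWAT expression differs when adipocytes lack Mettl14.

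Iron travels in plasma bound to transferrin, enters cells through the transferrin receptor, leaves the endosome through Slc11a2, is stored in ferritin and leaves the cell through ferroportin. Heme and hemoglobin released from red cells are bound by hemopexin and haptoglobin, and heme oxygenase 1 opens the heme ring and frees its iron. In adipose tissue, resident macrophages take up and recycle much of this iron, while adipocytes and the liver secrete several of the plasma carriers. Iron regulatory proteins, Aco1 and Ireb2, bind a short RNA hairpin, the iron responsive element, when iron is scarce. Binding in a 5′ UTR blocks translation, and binding in the 3′ UTR of Tfrc protects the RNA from decay.

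The hairpins of the member transcripts are shown because they are the sequence feature that joins storage, export and uptake. GENCODE transcripts of GRCm38 were searched for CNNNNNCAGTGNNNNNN, with the 5 bases on each side of the loop paired and G-T pairs allowed. The pattern was found in transcripts of 4 of the 10 members and in 565 of 58797 protein-coding transcripts, 0.961% of them. Capitals mark the 6-base loop, and each run is 5′ to 3′ on the transcript.
Fth1, 5′ UTR, chr19:9982732-9982761, plus strand: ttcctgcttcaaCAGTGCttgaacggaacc
Ftl1, 5′ UTR, chr7:45459778-45459807, minus strand: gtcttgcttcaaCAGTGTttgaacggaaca
Slc40a1, 5′ UTR, chr1:45925464-45925493, minus strand: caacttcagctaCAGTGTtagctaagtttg
Tfrc, 3′ UTR, chr16:32631219-32631248, plus strand: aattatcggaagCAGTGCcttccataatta
Tfrc, 3′ UTR, chr16:32631598-32631627, plus strand: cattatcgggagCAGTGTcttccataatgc
Tfrc, 3′ UTR, chr16:32631663-32631692, plus strand: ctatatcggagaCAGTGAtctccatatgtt
Tfrc, 3′ UTR, chr16:32631710-32631739, plus strand: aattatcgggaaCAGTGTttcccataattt
The pattern lay in 4 of 5 Fth1 transcripts, 1 of 2 Ftl1 transcripts, 1 of 4 Slc40a1 transcripts and 1 of 3 Tfrc transcripts. An element with an unpaired base beside the loop is not found this way, so a member without a match may still carry one. RNA levels do not measure binding or translation. The 4 genes with a match did not share a direction. Both ferritins were lower in Mettl14Δfat eWAT, Slc40a1 was higher, and the Tfrc values of the 2 groups overlapped.

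RefSeq promoter windows of GRCm38.p6, each running 250 bases before to 50 after a start site, were matched for 5 of the 10 members, namely Hpx, Tfrc, Ftl1, Fth1 and Slc11a1. The Hpx window is of interest because Hpx had the largest fold change of the 10. It held one match, on its minus strand, to TGACNNNGC, the core of the antioxidant responsive element, starting 95 bases before the start site.
Hpx, chr7:105600193-105600222, minus strand: tgccaatattgGCATAGTCAtggaagacaa
Capitals mark the match. The same letters, on either strand, were in 12.4% of 32851 windows. ACGTG, the core of the hypoxia responsive element, was found in the Tfrc windows and in 19.6% of all windows. TTCNNNGAA, the letters bound by STAT factors, was in none of the member windows and in 8.3% of all windows. These are matches of letters and were not tested for binding.

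Mettl14, the deleted gene, was 4.48, 4.42 and 4.42 FPKM in Mettl14Δfat replicates 1 to 3 and 5.15, 4.67 and 5.47 FPKM in Mettl14f/f replicates 1 to 3, a log2 fold change of −0.30 (SE 0.0659, adjusted p = 0.0108). Reads were summed over the whole gene and over all cells of the tissue. Male germ line RNA was present in a pair of libraries: 8 of its markers summed to 198, 310 and 0.440 FPKM in Mettl14Δfat replicates 1 to 3, against 0.260 to 0.930 FPKM in Mettl14f/f libraries. Of 3 Sertoli and Leydig cell markers tested, Insl3 and Sox9 rose. Insl3 was 85.8, 135 and 15.8 FPKM in Mettl14Δfat replicates 1 to 3 and 5.56 to 7.52 FPKM in Mettl14f/f libraries, so that replicate 3 was above the controls as well. Sox9 was 1.44 to 6.45 FPKM in Mettl14Δfat and 0.590 to 0.880 FPKM in Mettl14f/f libraries, and passed the filter through the Mettl14Δfat libraries. Of 13 macrophage markers tested, 7 fell, and their summed level was 3628, 2723 and 5054 FPKM in Mettl14Δfat replicates 1 to 3, against 6149 to 6747 FPKM in Mettl14f/f libraries. All 5 erythroid markers tested rose, with sums of 4116 to 9878 FPKM in Mettl14Δfat and 1993 to 3082 FPKM in Mettl14f/f libraries. Of 10 white adipocyte markers, 2 rose, 1 fell and 7 did not pass, and Adipoq, which encodes adiponectin, was 255 to 465 FPKM in Mettl14Δfat and 311 to 567 FPKM in Mettl14f/f libraries. In bulk tissue, fewer cells of a type and less RNA per cell cannot be told apart.

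Of the 10 members, 3 were higher and 5 lower in every Mettl14Δfat library than in every Mettl14f/f library after scaling between libraries, and 2 overlapped. Among all 12955 genes tested, 30.3% lay wholly higher and 30.8% wholly lower in the same way. By limma with an adjusted p under 0.05, 24.8% of all genes rose and 24.8% fell. Because the set was drawn from this contrast, nothing is read from its count. The median log2 fold change was −0.21 over the 10 members and 0.01 over all genes tested, and the members ranged between −1.19 for Slc11a1 and 3.58 for Hpx. Per-library levels below are FPKM as deposited, and each log2 fold change, Mettl14Δfat over Mettl14f/f, was fitted on log2(scaled FPKM + 1).

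**Figure D1:**
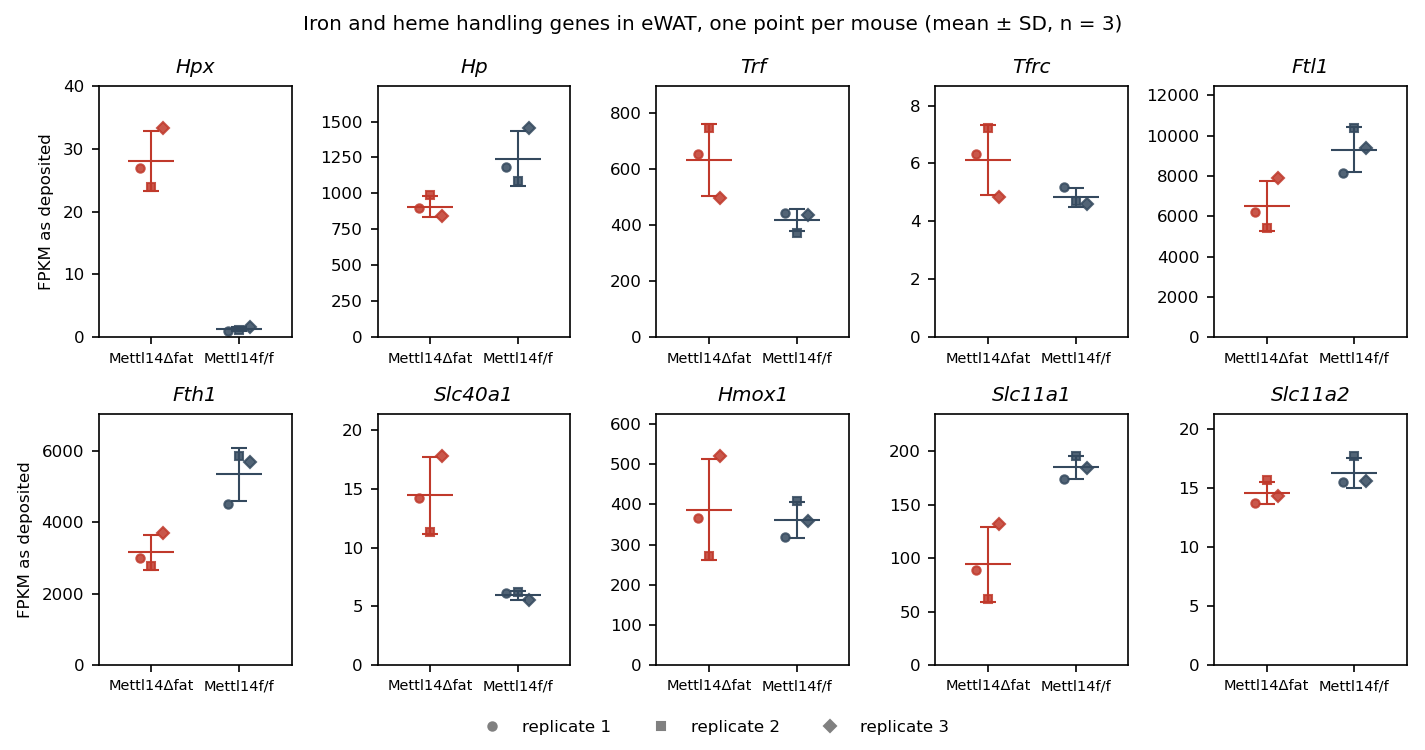
FPKM as deposited of the 10 genes, one panel per gene, with Mettl14Δfat mice on the left and Mettl14f/f mice on the right (symbols, replicates 1 to 3; bars, mean ± SD, n = 3 each). Hpx, Trf and Slc40a1 sit higher in every Mettl14Δfat mouse, Hp, Ftl1, Fth1 and Slc11a1 sit lower in every Mettl14Δfat mouse, and Tfrc, Hmox1 and Slc11a2 overlap on this scale.

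Hpx showed the largest difference. Hemopexin binds free heme in plasma with high affinity and carries it to cells for breakdown. Its level was 26.9, 24.0 and 33.4 FPKM in Mettl14Δfat replicates 1 to 3 and 0.950, 1.18 and 1.57 FPKM in Mettl14f/f replicates 1 to 3. The groups were far apart, and the lowest Mettl14Δfat mouse lay well above the highest Mettl14f/f mouse. Mean levels were 28.1 ± 4.78 FPKM in Mettl14Δfat and 1.23 ± 0.313 FPKM in Mettl14f/f eWAT (SD, n = 3 each), a ratio of 22.8. The log2 fold change was 3.58 (SE 0.158) with a pseudocount of 1 and 4.26 with a pseudocount of 0.1, since the pseudocount understates the change of a gene whose level is low in 1 group. The liver is the main source of plasma hemopexin. Of 3 hepatocyte markers tested, 1 rose, 1 fell and 1 did not pass. The summed level of all 10 matched was 9.51 to 11.3 FPKM in Mettl14Δfat and 4.87 to 6.03 FPKM in Mettl14f/f libraries, and Alb, which encodes albumin, was 1.23 to 1.45 FPKM in Mettl14Δfat and 0.480 to 1.25 FPKM in Mettl14f/f libraries. The marker that rose was Serpina1a, a protease inhibitor, at 5.12 to 6.46 FPKM in Mettl14Δfat and 0.760 to 1.29 FPKM in Mettl14f/f libraries. The part of liver-type expression in the Hpx level was not tested.

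Haptoglobin, which binds hemoglobin released from red cells and is made by adipocytes as well as liver, went the other way. Hp was 898, 986 and 841 FPKM in Mettl14Δfat replicates 1 to 3 and 1182, 1089 and 1456 FPKM in Mettl14f/f replicates 1 to 3. Every Mettl14Δfat mouse was lower than every Mettl14f/f mouse, with a log2 fold change of −0.61 (SE 0.122). Hp remained far more abundant than Hpx in both groups, but the ratio of their FPKM was 33.3, 41.1 and 25.2 in Mettl14Δfat libraries and 1244, 923 and 927 in Mettl14f/f libraries. The ratio within a library does not depend on scaling between libraries.

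Transferrin, the plasma carrier of iron, was abundant in eWAT and higher in Mettl14Δfat mice. Trf was 654, 747 and 495 FPKM in Mettl14Δfat replicates 1 to 3 and 444, 372 and 437 FPKM in Mettl14f/f replicates 1 to 3. Mettl14Δfat replicate 3 was nearest to the controls, and the log2 fold change was 0.42 (SE 0.146). Without Mettl14Δfat replicates 1 and 2, the remaining Mettl14Δfat library gave 0.13. With the germ line level as a covariate, the log2 fold change was 0.12. That level was high only in Mettl14Δfat replicates 1 and 2, so this fit also rests largely on replicate 3. For any gene, both fits are close to the same contrast and are not separate checks.

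Its receptor, Tfrc, imports iron-loaded transferrin. It was expressed at 6.31, 7.23 and 4.83 FPKM in Mettl14Δfat replicates 1 to 3 and 5.20, 4.69 and 4.60 FPKM in Mettl14f/f replicates 1 to 3. The groups overlapped because Mettl14Δfat replicate 3 lay within the range of the controls. The log2 fold change was 0.14 (SE 0.116). It was −0.10 without Mettl14Δfat replicates 1 and 2. With the germ line level as a covariate, a fit close to the same contrast, it was also −0.10.

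The ferritin chains were among the most abundant transcripts of the tissue: by mean FPKM, Ftl1 ranked 2 and Fth1 ranked 3 among all genes. Fth1, the heavy chain, oxidises iron for storage. It was 2999, 2766 and 3708 FPKM in Mettl14Δfat replicates 1 to 3 and 4497, 5865 and 5684 FPKM in Mettl14f/f replicates 1 to 3. No Mettl14Δfat mouse reached the lowest control, and the log2 fold change was −0.92 (SE 0.171). Ftl1, the light chain, helps to form the iron core. It was 6221, 5407 and 7873 FPKM in Mettl14Δfat replicates 1 to 3 and 8131, 10382 and 9408 FPKM in Mettl14f/f replicates 1 to 3, again without overlap. The log2 fold change of Ftl1 was −0.69 (SE 0.185). Without Mettl14Δfat replicates 1 and 2 these values were −0.64 for Fth1 and −0.35 for Ftl1, both still negative and smaller.

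Together the 2 chains took 1.89%, 1.68% and 2.38% of the summed FPKM in Mettl14Δfat replicates 1 to 3 and 2.75%, 3.52% and 3.28% in Mettl14f/f replicates 1 to 3. Fth1 was lower by more than Ftl1, and the ratio of Ftl1 to Fth1 was 2.07, 1.95 and 2.12 in Mettl14Δfat libraries and 1.81, 1.77 and 1.66 in Mettl14f/f libraries, without overlap. Both genes have processed pseudogenes in RefSeq that are not rows of the expression table, so reads shared with these copies make the ferritin levels uncertain.

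Ferroportin, which exports iron from macrophages and other cells, differed from ferritin in direction. Slc40a1 was 14.2, 11.3 and 17.8 FPKM in Mettl14Δfat replicates 1 to 3 and 6.10, 6.21 and 5.50 FPKM in Mettl14f/f replicates 1 to 3. All Mettl14Δfat mice were higher, with a ratio of means of 2.43 and a log2 fold change of 0.99 (SE 0.160). Fth1 RNA exceeded Slc40a1 RNA by 212, 244 and 208 times in Mettl14Δfat libraries and by 737, 944 and 1033 times in Mettl14f/f libraries. On the log2 scale the difference of Slc40a1 was 1.33 without Mettl14Δfat replicates 1 and 2.

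Heme oxygenase 1 breaks heme down to biliverdin, carbon monoxide and iron. Hmox1 was 367, 272 and 522 FPKM in Mettl14Δfat replicates 1 to 3 and 319, 409 and 358 FPKM in Mettl14f/f replicates 1 to 3. The Mettl14Δfat mice lay on both sides of the controls. The log2 fold change was −0.11 (SE 0.248) after scaling and 0.05 on FPKM as deposited, and 0.41 without Mettl14Δfat replicates 1 and 2, so no direction can be given.

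Slc11a1 moves divalent metals out of the phagosome and is expressed mainly in macrophages and other phagocytes. Its level was 89.1, 61.8 and 132 FPKM in Mettl14Δfat replicates 1 to 3 and 174, 196 and 185 FPKM in Mettl14f/f replicates 1 to 3. The highest Mettl14Δfat mouse was below the lowest Mettl14f/f mouse. The log2 fold change of −1.19 (SE 0.266) was the lowest of the 10. It was −0.60 without Mettl14Δfat replicates 1 and 2.

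Slc11a2, the related transporter that carries iron out of endosomes in most cells, differed little. It was 13.8, 15.7 and 14.4 FPKM in Mettl14Δfat replicates 1 to 3 and 15.5, 17.8 and 15.6 FPKM in Mettl14f/f replicates 1 to 3. As deposited, the highest Mettl14Δfat value lay just within the control range, and after scaling all Mettl14Δfat values were lower, with a log2 fold change of −0.30 (SE 0.0790). The ratio of Slc11a1 to Slc11a2 was 6.47, 3.94 and 9.18 in Mettl14Δfat and 11.2, 11.0 and 11.8 in Mettl14f/f libraries.

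**Figure D2:**
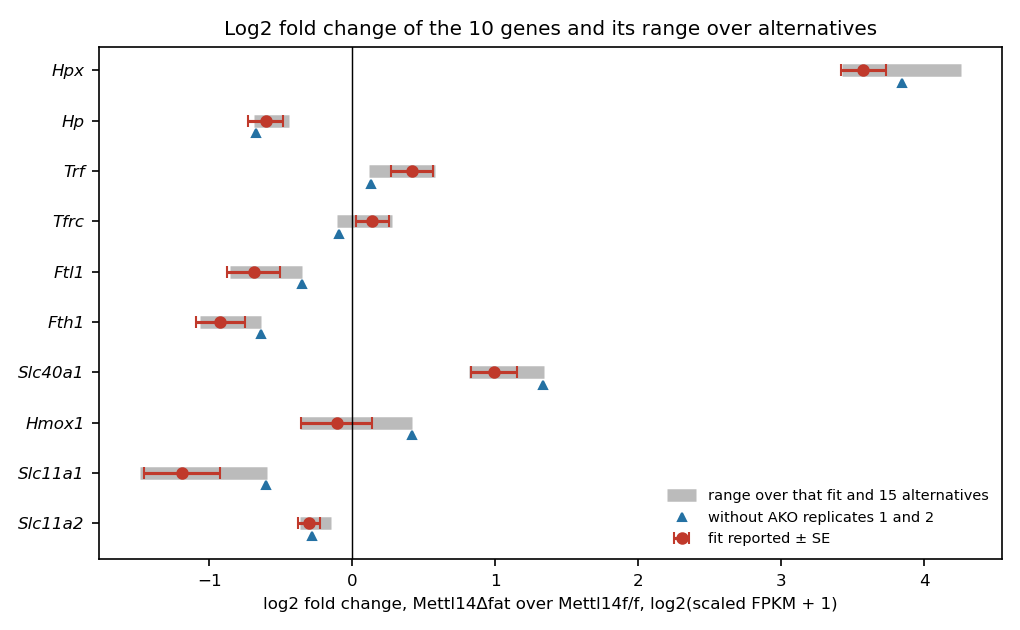
Log2 fold change of the 10 genes, Mettl14Δfat over Mettl14f/f, on log2(scaled FPKM + 1) (red, fit reported ± SE; grey, range over that fit and 15 alternatives, 14 for Hpx; blue triangles, without Mettl14Δfat replicates 1 and 2). Only the ranges of Tfrc and Hmox1 cross 0 among the 10.

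The 3 Mettl14Δfat mice also differed among themselves, and the members fell into a pair of patterns. For 6 members, Hpx, Ftl1, Fth1, Slc40a1, Hmox1 and Slc11a1, Mettl14Δfat replicate 3 was highest and replicate 2 lowest, which was also the order of the macrophage marker sum. For 3 members, Hp, Trf and Tfrc, replicate 2 was highest and replicate 3 lowest, the order of the adipocyte, erythroid and germ line marker sums. Slc11a2 followed neither order. Among the Mettl14f/f mice, the macrophage sum was highest in replicate 2 and lowest in replicate 3. Slc40a1 was the 1 gene of those 6 with the same order. The median of the macrophage markers ordered these mice otherwise, at 0.10, 0.01 and −0.09 from their mean in replicates 1 to 3 on the log2(scaled FPKM + 1) scale. None of the 6 genes had that order. Relative to the Mettl14f/f mean, on the log2(scaled FPKM + 1) scale, Slc11a1 lay at −1.22, −1.75 and −0.61 in Mettl14Δfat replicates 1 to 3, and the median of the macrophage markers lay at −0.54, −0.89 and −0.22. Trf lay at 0.47, 0.66 and 0.12, and the median of the adipocyte markers at 0.14, 0.46 and −0.30. The median of the Sertoli and Leydig cell markers lay at 1.45, 1.99 and 0.44, and that of the germ line markers at 4.12, 4.74 and −0.01. The part of cell makeup in these differences was not tested.

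**Figure D3:**
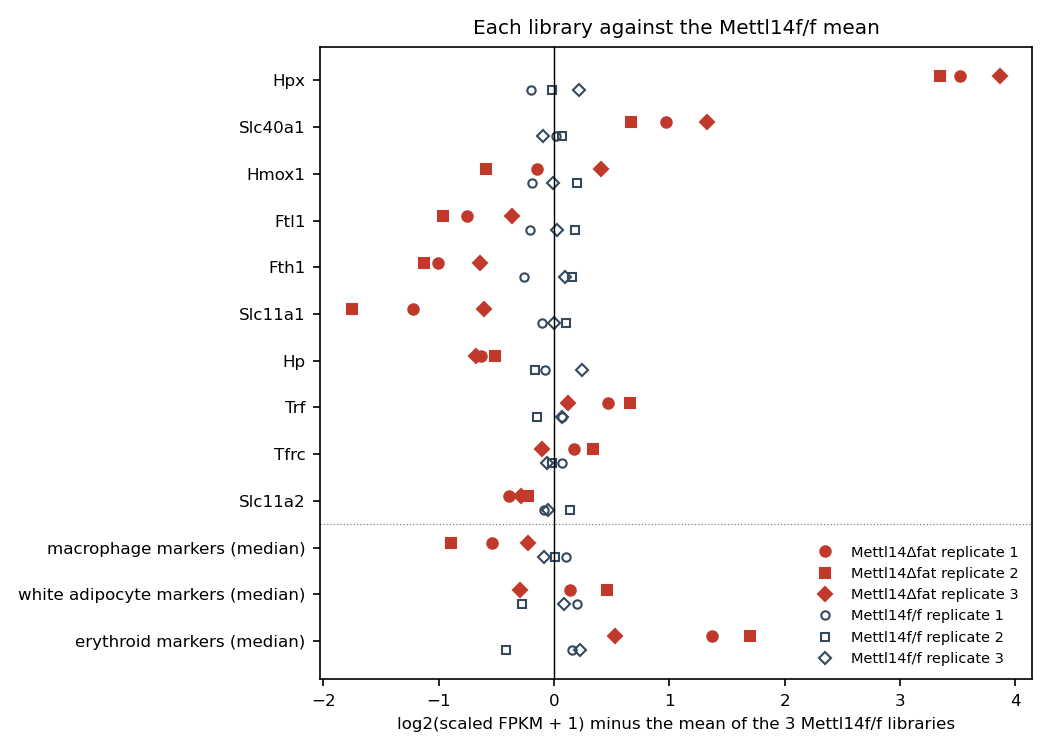
Each library's log2(scaled FPKM + 1) minus the mean of the 3 Mettl14f/f libraries, for the 10 genes and, below the dotted line, for the median of 3 marker lists (filled red, Mettl14Δfat; open dark, Mettl14f/f; symbols, replicates 1 to 3). In the upper 6 genes and the macrophage markers, Mettl14Δfat replicate 3 lies to the right of replicates 1 and 2.

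Because iron recycling genes are expressed in macrophages, 5 members were also divided, within each library, by each of the 13 macrophage markers tested. These ratios were chosen after the values had been seen, and the markers did not move together: Cd68, a lysosomal protein, was 590, 475 and 788 FPKM in Mettl14Δfat and 1252, 1346 and 1255 FPKM in Mettl14f/f libraries, while Mrc1, the mannose receptor, was 81.6, 61.5 and 106 FPKM in Mettl14Δfat and 78.8, 73.2 and 66.7 FPKM in Mettl14f/f libraries. Slc40a1 was higher in every Mettl14Δfat library relative to 12 of the 13 markers and overlapped relative to Cd163. Slc40a1 per Cd68 was 0.0240, 0.0238 and 0.0226 in Mettl14Δfat and 0.00487, 0.00462 and 0.00438 in Mettl14f/f libraries, and per Mrc1 it was 0.174, 0.184 and 0.168 in Mettl14Δfat and 0.0775, 0.0848 and 0.0825 in Mettl14f/f libraries. For the other 4 members the outcome depended on the marker. Hmox1 was higher relative to 7 markers and overlapped relative to 6. Fth1 was higher relative to 4, lower relative to 4 and overlapped relative to 5. Ftl1 was higher relative to 5, lower relative to 2 and overlapped relative to 6. Slc11a1 was higher relative to 2, lower relative to 7 and overlapped relative to 4. Other cells of the tissue also express ferritin, Slc40a1 and Hmox1, so none of these ratios is a level per macrophage.

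The remaining genes of iron and heme handling were taken from 6 lists, which were written with earlier results of these data known. Of 85 matched genes, 74 passed the filter; at an adjusted p under 0.05, 33 rose, 13 fell and 28 passed in neither direction. Their median log2 fold change was 0.17, against 0.01 over all genes, of which 24.8% rose and 24.8% fell. When Mettl14Δfat replicates 1 and 2 were left out, 15 rose and 5 fell, and on FPKM as deposited 41 rose and 6 fell. Among all genes tested, 3211 rose and 3209 fell after scaling, against 4672 and 1963 on FPKM as deposited, where all tested genes had a median log2 difference of 0.1494.

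**Figure D4:**
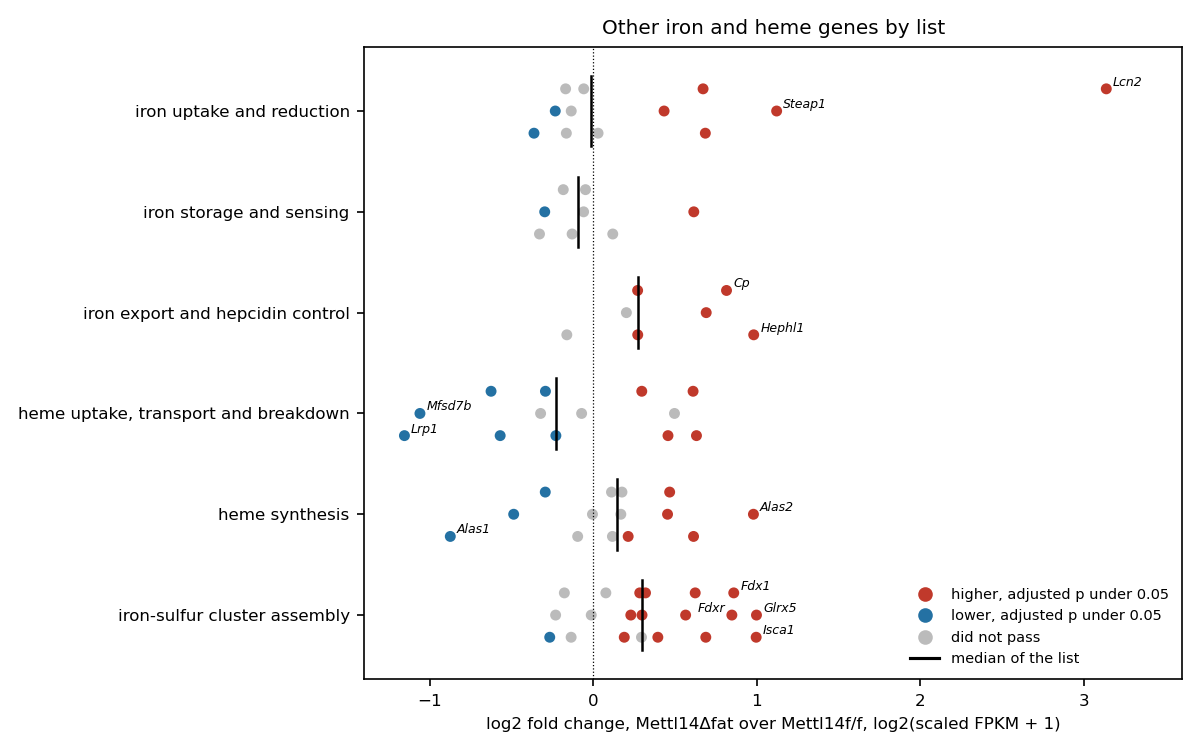
Log2 fold change, Mettl14Δfat over Mettl14f/f, of the other iron and heme genes in 6 lists (points, genes, red higher and blue lower at an adjusted p under 0.05, grey did not pass; black bars, median of each list). Lcn2 lies far to the right at 3.14, and 13 of 20 genes for iron-sulfur cluster assembly are red.

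In the list for iron uptake and reduction, 5 of 12 genes rose and 2 fell. Lcn2, a secreted protein that binds iron-carrying siderophores, rose most. It was 195, 213 and 143 FPKM in Mettl14Δfat and 28.2, 14.8 and 12.9 FPKM in Mettl14f/f libraries, a log2 fold change of 3.14 (SE 0.282, adjusted p = 0.000474). Slc22a17, described as a receptor for Lcn2, rose with a log2 fold change of 0.69 (SE 0.154, adjusted p = 0.0111), and this call was lost with the germ line level as a covariate (log2 fold change 0.40, adjusted p = 0.0848, the highest over the alternatives). Steap1, of a family of metal reductases, rose with a log2 fold change of 1.12 (SE 0.153, adjusted p = 0.00178). Its levels were low, at 1.72 to 2.55 FPKM in Mettl14Δfat and 0.250 to 0.430 FPKM in Mettl14f/f libraries. It passed the filter through the Mettl14Δfat libraries. Lcn2 is also abundant in neutrophils, and of 2 neutrophil markers tested S100a8 rose by 1.40 on the log2 scale (SE 0.140, adjusted p = 0.000664), at 28.9 to 41.8 FPKM in Mettl14Δfat and 10.7 to 13.6 FPKM in Mettl14f/f libraries, while S100a9 did not pass (log2 fold change 0.41, SE 0.335, adjusted p = 0.340). The list held 8 neutrophil markers, and the rest of them averaged under 1 FPKM and were not tested. The part of neutrophils in the Lcn2 level was not tested. The mitochondrial iron importers Slc25a28 and Slc25a37 also rose, by 0.67 and 0.43 on the log2 scale.

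Steap3, the reductase that prepares iron for export from the endosome, fell by 0.36 on the log2 scale (SE 0.106, adjusted p = 0.0289). Snx3, which recycles the transferrin receptor, fell by 0.23 (SE 0.0760, adjusted p = 0.0421). On FPKM as deposited both calls were lost, with log2 fold changes of −0.20 for Steap3 (adjusted p = 0.102) and −0.07 for Snx3 (adjusted p = 0.365). The Steap3 call was lost without any 1 of Mettl14Δfat replicates 1 and 2 and Mettl14f/f replicates 2 and 3, and its adjusted p reached 0.339 over the alternatives. The Snx3 call was lost without any 1 of Mettl14Δfat replicates 1 and 2 and each Mettl14f/f replicate, with an adjusted p of up to 0.459. For Steap4, the reductase known from adipocytes, the log2 fold change was 0.03 (SE 0.139, adjusted p = 0.872).

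Among the genes for iron storage and sensing other than ferritin, 1 of 8 rose and 1 fell. Fbxl5, the iron sensor that marks Ireb2 for degradation, rose. It was 55.0, 53.5 and 57.5 FPKM in Mettl14Δfat and 36.1, 30.4 and 29.6 FPKM in Mettl14f/f libraries, a log2 fold change of 0.61 (SE 0.0847, adjusted p = 0.00184). Herc2, a ubiquitin ligase, fell by 0.30 on the log2 scale (SE 0.0647, adjusted p = 0.00996), but the call was lost on FPKM as deposited (−0.16, adjusted p = 0.111, the highest over the alternatives) and without Mettl14Δfat replicates 1 and 2. The iron regulatory proteins did not pass, with log2 fold changes of −0.06 for Aco1 (SE 0.0582, adjusted p = 0.429) and −0.05 for Ireb2 (SE 0.0620, adjusted p = 0.549). Ncoa4, the receptor that delivers ferritin to lysosomes, had 0.12 (SE 0.0719, adjusted p = 0.206), and passed only on FPKM as deposited (adjusted p = 0.0145 there, and up to 0.646 over the alternatives).

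In the list for iron export and hepcidin control, 5 of 7 genes rose. Ceruloplasmin (Cp), a copper oxidase that loads exported iron onto transferrin, was 30.1, 30.7 and 28.1 FPKM in Mettl14Δfat and 21.9, 10.8 and 13.2 FPKM in Mettl14f/f libraries. The log2 fold change of Cp was 0.81 (SE 0.220, adjusted p = 0.0215). This call was lost without any 1 of Mettl14Δfat replicate 1, Mettl14f/f replicate 2 and Mettl14f/f replicate 3, and the adjusted p reached 0.158 over the alternatives. Hephl1, a related oxidase, rose by 0.98 on the log2 scale (SE 0.155, adjusted p = 0.00292), and by 1.84 with a pseudocount of 0.1. Its levels were low, at 1.46 to 2.37 FPKM in Mettl14Δfat and 0.350 to 0.550 FPKM in Mettl14f/f libraries. It passed the filter through the Mettl14Δfat libraries, and could not be fitted without Mettl14Δfat replicate 2. Bmp6, a signal that induces hepcidin in liver, rose by 0.69 (SE 0.0895, adjusted p = 0.00149). Heph, the third oxidase, did not pass (log2 fold change −0.16, SE 0.0979, adjusted p = 0.209). Without Mettl14Δfat replicates 1 and 2 together, 1 gene of the list rose. Hamp, which encodes hepcidin, was listed at 0, 0.130 and 0.150 FPKM in Mettl14Δfat and at 0 in all Mettl14f/f libraries, and was too low to be tested. Without Mettl14Δfat replicate 1, or without Mettl14f/f replicate 3, 2 genes of the list rose.

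The list for heme uptake, transport and breakdown was divided, with 4 of 13 genes higher and 6 lower. Lrp1, the receptor for hemopexin and for many other ligands, fell while its ligand Hpx was higher. It was 93.8, 87.4 and 109 FPKM in Mettl14Δfat and 182, 200 and 196 FPKM in Mettl14f/f libraries, a log2 fold change of −1.15 (SE 0.107, adjusted p = 0.000527). Mfsd7b, also called Flvcr1, a heme exporter, fell by 1.06 on the log2 scale (SE 0.113, adjusted p = 0.000808). Bach1, a repressor of Hmox1 that is released by heme, fell by 0.62 (SE 0.0824, adjusted p = 0.00160). Blvra, which turns biliverdin into bilirubin, fell by 0.57 (SE 0.116, adjusted p = 0.00772), and Blvrb, the second such reductase, did not pass (log2 fold change −0.32, SE 0.166, adjusted p = 0.147), except without Mettl14Δfat replicate 3 (adjusted p = 0.0275, and up to 0.916 over the alternatives).

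Hebp1, a heme-binding protein, rose by 0.63 on the log2 scale (SE 0.140, adjusted p = 0.0106), Slc46a1, a folate and heme importer, by 0.61 (SE 0.0966, adjusted p = 0.00296), and Abcg2, an exporter of porphyrins, by 0.46 (SE 0.112, adjusted p = 0.0152). The Hebp1 call was lost with the germ line level as a covariate and without Mettl14Δfat replicates 1 and 2, where the log2 fold changes were 0.34 and 0.35 (adjusted p of up to 0.0700 over the alternatives). The Abcg2 call was lost without Mettl14Δfat replicate 1 or Mettl14f/f replicate 3, with adjusted p values of up to 0.0633 over the alternatives. Cd163, the macrophage receptor for hemoglobin and haptoglobin, was 10.4, 8.53 and 11.6 FPKM in Mettl14Δfat and 12.3, 4.02 and 4.45 FPKM in Mettl14f/f libraries. Its log2 fold change was 0.50 (SE 0.365, adjusted p = 0.293), with a single high Mettl14f/f mouse. Without that mouse, Mettl14f/f replicate 1, it was 0.94 (adjusted p = 0.00638, and up to 0.630 over the alternatives).

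In heme synthesis, 5 of 14 genes rose and 3 fell, against 10 and 2 on FPKM as deposited. The first enzyme has a pair of forms that went in opposite directions. Alas1, the form found in most cells, was 69.7, 74.7 and 64.9 FPKM in Mettl14Δfat and 107, 119 and 118 FPKM in Mettl14f/f libraries, a log2 fold change of −0.87 (SE 0.0749, adjusted p = 0.000423). Alas2, the erythroid form, was 22.2, 29.1 and 12.5 FPKM in Mettl14Δfat and 11.4, 6.19 and 9.17 FPKM in Mettl14f/f libraries, a log2 fold change of 0.98 (SE 0.307, adjusted p = 0.0364). Alas2 is also 1 of the erythroid markers that rose, with Hba-a1, an alpha globin, at 1778 to 4380 FPKM in Mettl14Δfat and 888 to 1308 FPKM in Mettl14f/f libraries, and the part of blood in its level was not tested. The Alas2 call was lost without any 1 of Mettl14Δfat replicates 1 and 2 and Mettl14f/f replicates 2 and 3, with an adjusted p of up to 0.365.

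Of the later steps, Alad rose by 0.61 on the log2 scale (SE 0.172, adjusted p = 0.0247) and Uros by 0.47 (SE 0.0866, adjusted p = 0.00537). Cpox fell by 0.29 (SE 0.0846, adjusted p = 0.0273), but did not pass on FPKM as deposited (log2 fold change −0.15, adjusted p = 0.135). The Uros call was lost without Mettl14Δfat replicates 1 and 2 (adjusted p = 0.0677, the highest over the alternatives). The Alad call was lost without any 1 of Mettl14Δfat replicate 1 and the Mettl14f/f replicates (adjusted p of up to 0.165 over the alternatives). The Cpox call was lost without any 1 of Mettl14Δfat replicates 1 and 2 and Mettl14f/f replicates 1 and 2 (up to 0.313). Without Mettl14Δfat replicate 1, or without Mettl14f/f replicate 2, 1 gene of the list rose. Without Mettl14Δfat replicates 1 and 2, 0 rose by limma at an adjusted p under 0.05 and 1 at an unadjusted p under 0.05.

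Iron-sulfur clusters are assembled in mitochondria on Iscu with electrons from ferredoxin and handed on by Glrx5 and the Isca proteins. Of 20 genes for this assembly, 13 rose and 1 fell, with a median log2 fold change of 0.30. Isca1 was 85.2, 89.5 and 76.5 FPKM in Mettl14Δfat and 38.9, 36.0 and 36.1 FPKM in Mettl14f/f libraries, a log2 fold change of 1.00 (SE 0.0631, adjusted p = 0.000192). Glrx5 was 104, 117 and 87.4 FPKM in Mettl14Δfat and 43.5, 42.5 and 50.2 FPKM in Mettl14f/f libraries, also a log2 fold change of 1.00 (SE 0.110, adjusted p = 0.000898). Fdx1, a ferredoxin, rose by 0.86 on the log2 scale (SE 0.180, adjusted p = 0.00854), and Lyrm4, a partner of the cysteine desulfurase Nfs1, fell by 0.27 (SE 0.0570, adjusted p = 0.00930). The Lyrm4 call was lost on FPKM as deposited (−0.13, adjusted p = 0.122, the highest over the alternatives) and without Mettl14Δfat replicates 1 and 2. The Fdx1 call was lost with the germ line level as a covariate and without those mice, with an adjusted p of up to 0.108. Without them, 6 genes of the list rose.

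Hpx and Hp are acute phase proteins, so the other genes of that response were also counted. Of 7 tested, 4 rose and 1 fell. The orosomucoids, plasma proteins induced in inflammation, all rose. Orm2 was 33.9, 25.3 and 44.6 FPKM in Mettl14Δfat and 5.05, 4.08 and 4.32 FPKM in Mettl14f/f libraries, a log2 fold change of 2.52 (SE 0.203, adjusted p = 0.000374). Orm3 rose by 2.09 on the log2 scale (SE 0.203, adjusted p = 0.000613) and Orm1 by 1.19 (SE 0.167, adjusted p = 0.00195). Orm3 was low in Mettl14f/f libraries, at 0.340 to 1.11 FPKM, against 6.38 to 8.70 FPKM in Mettl14Δfat libraries. It passed the filter through the Mettl14Δfat libraries. The orosomucoid genes are close copies, and reads may be split between them. Saa3, the serum amyloid A form made in adipose tissue and macrophages, fell by 0.89 (SE 0.214, adjusted p = 0.0142). The Saa3 call was lost with the germ line level as a covariate (adjusted p = 0.101) and without Mettl14Δfat replicates 1 and 2 (adjusted p = 0.149, the highest over the alternatives).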

How the data were processed

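RNA-seq was run on eWAT of 3 Mettl14Δfat and 3 Mettl14f/f mice, and the authors deposited FPKM per gene and library, rounded to 2 decimals. DESeq2 is named both in the study's methods, with STAR and HTSeq, and in the submitters' processing notes; RSEM, HISAT2, Bowtie2 and the build mm10 (GRCm38) come from those notes alone, and no version is given in the sources used here. Another table holds the authors' own fold changes and p-values and was not used. The table had 21362 entries, and 1 unnamed entry was dropped. FPKM sums were 487025 to 487690 in Mettl14Δfat and 459180 to 461757 in Mettl14f/f libraries. The depth per library is unknown, so precision rests on the spread between mice.

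Libraries were scaled by a trimmed mean of M values (30% of ratios and 5% of levels trimmed) over genes averaging at least 1 FPKM, with factors of 0.933 to 1.07. Then log2(FPKM + 1) was fitted in limma 3.58.1 (R 4.3.3) with a mean-variance trend and Benjamini-Hochberg adjustment over 12955 genes, two-sided. The fit was also run on simulated data with the same spread for all genes and no germ line RNA. That run does not measure the error rate here. The members and lists were chosen with earlier results of these data known. An exact permutation test of 3 against 3 cannot go below 0.1. Genes named are the 10 members, up to 3 per list and direction with the largest changes past the threshold, fixed partner genes and Mettl14, of which 1 is not reported here; Slc25a28, Slc25a37, Adipoq, Alb, Serpina1a, Hba-a1, Cd68, Mrc1, Insl3, Sox9, S100a8 and S100a9 were added after their values were seen. Gene coordinates, hairpins and promoters came from GENCODE vM21 and RefSeq on GRCm38, the build of the files. Proteins were not analysed here. Alternatives tried were at least 1 FPKM in every library or no filter on level, a pseudocount of 0.1, scaling over all genes above 0, median-of-ratios scaling, no scaling, a replicate block, a germ line covariate, each library left out and Mettl14Δfat replicates 1 and 2 left out together. Replicate numbers were not taken as pairs in the fit reported.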

Additional observations from a re-analysis of the deposited data

How the results depend on the processing

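With FPKM as deposited, 1963 genes fell in place of 3209, and 6 of the other iron and heme genes fell in place of 13. With a replicate block, 8 of the iron and heme genes fell and 27 rose. Deviations of same-numbered mice from their group means correlated at 0.0368, −0.0915 and −0.131. Deviations from a mean of so few mice are tied to each other, so these values cannot show whether the numbers pair the mice. With the germ line level as a covariate, 2020 genes fell, and 20 of the iron and heme genes rose and 8 fell. Because that level was high only in Mettl14Δfat replicates 1 and 2, this fit and the fit without them are not separate checks. Without Mettl14Δfat replicates 1 and 2, 1656 genes rose and 1519 fell, and 15 of the iron and heme genes rose and 5 fell; here the single Mettl14Δfat library left is assumed to vary like the controls. Leaving out 1 library gave 2256 to 3813 genes higher, 2202 to 3565 lower, and 23 to 35 iron and heme genes higher and 8 to 15 lower, with the lowest of the last count, 8, without Mettl14f/f replicate 2. The cause of these changes was not tested, and the fits that leave libraries out also hold fewer of them.

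The median log2 fold change of the 10 members stayed between −0.34 and −0.05 over 15 alternatives. For 8 of the 10 the sign held in all of them, and Tfrc (−0.10 to 0.28) and Hmox1 (−0.37 to 0.42) changed sign. Of 31 other genes that passed and that the naming rule takes, 16 passed in the same direction under each alternative that could be fitted to them, among them Lcn2, Lrp1, Mfsd7b, Bach1, Alas1, Fbxl5, Glrx5 and Isca1. Hpx could not be fitted where at least 1 FPKM was required in every library, because 1 Mettl14f/f library lay at 0.950 FPKM. The Mettl14 call was lost on FPKM as deposited, with the germ line covariate and without Mettl14Δfat replicates 1 and 2, where its adjusted p was 0.134. The depth of single libraries is unknown, which limits low genes such as Hamp most.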
